A study of Homo sapiens with 17 samples.

Results

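Cells carrying the P351A form of DGCR8 together with a treatment labelled ALA were compared with cells rescued by wild-type DGCR8 (WT). The comparison comprised 6 of the 17 libraries of the series: the 3 columns of P351A plus ALA and the 3 columns of WT in a table of 15 rescue libraries. Its members were the microRNA hairpins with a mean of 10 or more over those 15 libraries, which 336 of the 1282 listed hairpins reached; the other 946 were not tested. All rescue libraries came from HCT116, an established human colon carcinoma line, in which the CTT domain of DGCR8 had been deleted (dCTT). Onto this background came a mock rescue, WT, DGCR8 with a C352A change, DGCR8 with a P351A change, or P351A plus ALA, in 3 libraries each. The labels do not spell out ALA, and give no dose, time or clone. WT and P351A plus ALA differ both in the DGCR8 change and in ALA, and no group combines WT with ALA, so the effect of each cannot be told apart in this comparison. Whether replicates were separate cultures is not stated, so p-values measure the spread between libraries, which may be technical.

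DGCR8 binds RNA and works with the nuclease DROSHA. Together they form Microprocessor, which cuts the hairpin out of a primary microRNA transcript; DICER then releases the mature strand, whose seed (bases 2 to 8) pairs with target messenger RNAs. DGCR8 binds heme, and both residues changed in these cells lie in its heme-binding part. A UGU in the apical loop of the hairpin is a known recognition element for DGCR8. A few hairpins, such as mirtrons cut out by splicing or those made at a transcription start, reach DICER without Microprocessor. The title of the series asks how hemin bears on recognition of the apical loop, and the comparison described here asks how close P351A plus ALA came to the WT rescue.

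Mature sequences are shown for the hairpins the results turn on, because hairpins with the same seed can be read as groups. They are 5′ to 3′, from RefSeq on GRCh38.p14, with the seed in capitals. RefSeq entries were matched for 273 of the 336 tested hairpins. The first 8 belong to hairpins that were higher in P351A plus ALA than in WT.
let-7d-5p: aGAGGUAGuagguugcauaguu
let-7e-5p: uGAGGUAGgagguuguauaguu
let-7f-5p: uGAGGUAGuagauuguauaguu
miR-103a-3p: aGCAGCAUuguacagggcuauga
miR-107: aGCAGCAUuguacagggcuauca
miR-101-3p: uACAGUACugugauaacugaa
miR-532-5p: cAUGCCUUgaguguaggaccgu
miR-877-5p: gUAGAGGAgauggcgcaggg
The next 9 belong to hairpins that were lower.
miR-16-5p: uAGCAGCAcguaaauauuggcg
miR-17-5p: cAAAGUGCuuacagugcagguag
miR-27a-3p: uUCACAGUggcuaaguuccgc
miR-27b-3p: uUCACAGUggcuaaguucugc
miR-24-3p: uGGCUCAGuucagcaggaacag
miR-196b-5p: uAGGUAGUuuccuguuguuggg
miR-126-3p: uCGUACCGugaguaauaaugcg
miR-99b-5p: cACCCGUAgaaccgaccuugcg
miR-373-3p: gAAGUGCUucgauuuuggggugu

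The 3 let-7 sequences share the seed GAGGUAG, miR-103a and miR-107 share GCAGCAU, and miR-27a and miR-27b share UCACAGU. The seed of miR-16, AGCAGCA, is also found at bases 1 to 7 of miR-103a and miR-107, and that of miR-196b, AGGUAGU, at bases 3 to 9 of let-7d and let-7f. With these shared letters at shifted positions, miR-16 and miR-196b belong to hairpins that fell and the others to hairpins that rose. The seed of miR-373, AAGUGCU, is likewise found at bases 3 to 9 of miR-17, and both of their hairpins fell.

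Values are scaled reads: read counts times 1 factor per library, as the authors deposited them. The recovered read counts summed to between 660126 and 1470755 per WT library and between 1191542 and 1941805 per P351A plus ALA library; this sum is the depth. The hairpin mir-320a, which bypasses Microprocessor, took 3.48% to 5.70% of the reads in WT and 5.94% to 7.13% in P351A plus ALA. Colon-epithelial hairpins were present, for example mir-192 at 181 to 323 scaled reads in WT and 103 to 124 in P351A plus ALA. The listed hairpins of muscle and liver summed to at most 4.29 and those of blood to at most 60.0 in any library of either group, and none of them reached the test.

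Some libraries stood apart. WT replicate 1 was the highest of the 3 WT libraries for 272 of 336 hairpins, with a median log2 distance of 0.58 from the group mean, and P351A plus ALA replicate 3 was the lowest of its group for 176. The hairpin mir-373, of a cluster known from embryonic stem cells, had 0 reads in all 6 P351A and P351A plus ALA libraries. It held 6509 reads over the WT group (1607 to 5176 scaled reads per library), 6221 in mock and 4294 in C352A. The absence coincides with the groups that carry P351A, so a difference between the cells used and one that came with the rescue cannot be told apart.

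Against WT, 46 hairpins (13.7%) rose in P351A plus ALA and 68 (20.2%) fell, and 222 did not pass the test. A hairpin is said to rise or fall where the adjusted p was under 0.05 in limma on log2(scaled reads + 1), fitted to all 15 libraries. On this log2 scale a difference of 1 is 2-fold and low hairpins are understated. The median difference of all 336 was -0.22, with quartiles of -0.91 and 0.58, and 142 hairpins lay above 0 and 194 below. By at least 2-fold, 35 rose and 52 fell. All 3 P351A plus ALA libraries lay above all 3 WT libraries for 46 hairpins (13.7%) and below them for 93 (27.7%). Of the 222 hairpins that did not pass, 41 had a 95% interval within 1 of 0; for the other 181 the interval reached 2-fold or beyond, so the data do not show that they were restored to the WT level.

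The balance of the counts rested on the scaling. Centred on 5 hairpins listed as independent of Microprocessor, 1 hairpin was higher and 170 lower (median -1.14). With edgeR and TMM scaling, 91 were higher and 57 lower (median 0.08). The library left out mattered as well. Without WT replicate 1, 58 were higher and 37 lower. Without WT replicate 3, 25 were higher, and without P351A plus ALA replicate 1, 24 were higher and 32 lower. Without P351A plus ALA replicate 2, 29 were higher, and without replicate 3, 45 were lower. Centred on the Microprocessor-independent hairpins, mir-877, itself 1 of those 5, was the 1 of the 46 rises that passed. The other rises below therefore hold at most on the other scalings. The 5 hairpins used for this centring did not move together. On the authors' scale their differences from WT ran from 0.37 to 1.93. All 68 falls passed, but this centring lowers every difference by the same amount (the median from -0.22 to -1.14). That the falls passed there is therefore no separate support for them. Median centring and equal totals also shift most hairpins by nearly the same amount. A list median that keeps its sign under these scalings is therefore no separate support either. With TMM 50 of the 68 falls passed. When only the 2 groups were fitted, 18 of the 46 rises and 29 of the 68 falls passed. Below, for calls against WT, the libraries whose omission ended a call are named with the adjusted p, as is any other scaling or tool that ended it. Counts of called list members are read against the shares over all 336 hairpins, 13.7% higher and 20.2% lower.

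**Figure D1:**
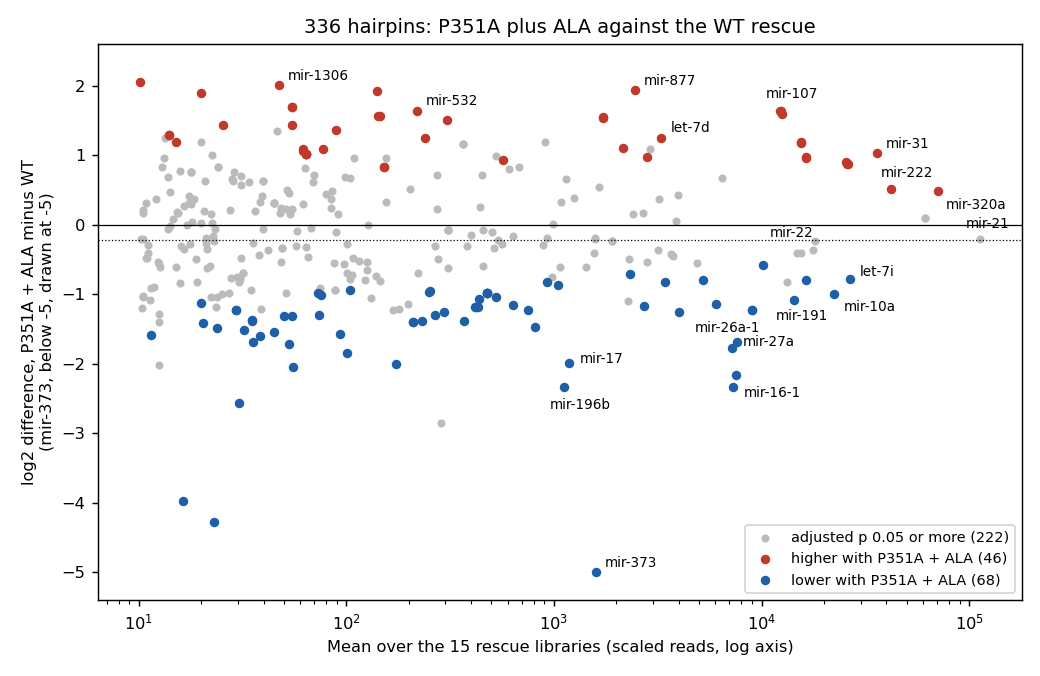
Each point is 1 of 336 hairpins; the x axis is its mean over 15 rescue libraries in scaled reads (log axis) and the y axis its log2 difference, P351A plus ALA minus WT, with mir-373 drawn at the lower edge. The 46 hairpins that rose and the 68 that fell are spread over the whole range of levels, and the dotted line marks the median of -0.22.

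The fall of mir-373 was the furthest. With 0 of its reads in P351A plus ALA, it was at least 3317-fold lower than in WT, taking 3 reads over the group as the floor. Its neighbour mir-372 had 2 reads against 58, a ratio of 44.3 (95% counting interval 11.7 to 375). The hairpin mir-202 had 1 read against 48, a ratio of 73.4 (12.6 to 2958). All of these counts also separated P351A libraries from mock.

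The tumour-suppressive miR-16 was among the abundant hairpins with a strong fall. Its hairpin mir-16-1, in an intron of DLEU2 (GRCh38.p14, chr13:50048973-50049061, minus strand), had 19991, 16380 and 15153 scaled reads in WT and 2833, 4737 and 2915 in P351A plus ALA. The groups lay far apart, and every P351A plus ALA library was also below all 3 mock libraries (5077 to 6751). The log2 difference from WT was -2.33 (SE 0.24, adjusted p 3.55e-06). The copy mir-16-2, on another chromosome within SMC4, shares the mature sequence and most of its reads and fell by 2.16. The other tested members of the miR-15/16 family did not pass in limma on the authors' scale. There mir-15a stood at -1.05 (adjusted p 0.0548), mir-15b at -0.52 (0.259) and mir-424 on the other side at 0.71 (0.145). As lower, mir-15a passed with median centring (0.00407), equal totals (0.0176) and DESeq2 (0.0209), and mir-15b with median centring (0.0386). As higher, mir-424 passed with TMM (0.00442) and DESeq2 (0.0101). So on the authors' scale 2 of 5 tested members fell and none rose. The list median was -1.05, and it was below 0 under each scaling.

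The hairpin mir-17, first of the oncogenic miR-17-92 cluster in MIR17HG, had 6106, 2093 and 1914 scaled reads in WT and 732, 1124 and 472 in P351A plus ALA. WT replicate 1 was far above the rest, but the groups did not overlap without it. The log2 difference was -1.99 (SE 0.44, adjusted p 0.00335). Levels of 492 to 535 scaled reads in P351A, and of 460 to 1239 in mock, lay in the same range. Elsewhere in the cluster and its paralogues the values differed. Of 12 tested members 2 rose, the copies mir-92a-1 and mir-92a-2, and mir-17 alone fell. Over all hairpins 13.7% rose and 20.2% fell, so these counts were near that background or below it. The rise of mir-92a-1 (0.96, adjusted p 0.046) did not pass without WT replicate 2 (0.162), WT replicate 3 (0.144), P351A plus ALA replicate 1 (0.14) or replicate 2 (0.106), nor in edgeR on the authors' scale (0.0626). Its ratio to the copy mir-92a-2 was 1.0 to 1.03, and mir-92a-2 lost its call in the same fits.

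In the miR-23/27/24 clusters, 4 of 6 tested hairpins fell, beside 20.2% of all hairpins, and none rose. The list median of -1.29 was below 0 under each scaling. For mir-27a, a known regulator of adipocyte differentiation, the 3 WT libraries held 30470, 16509 and 18461 scaled reads and the P351A plus ALA libraries 3934, 7959 and 7364. The highest P351A plus ALA library lay far below the lowest WT library. The difference was -1.78 (SE 0.28, adjusted p 0.000287). The hairpin mir-27b gave -1.69, but its reads are not separate evidence, since the ratio of mir-27a to mir-27b was 0.866 to 1.01 in the 15 libraries. The hairpin mir-24-1, which shares its mature strand with mir-24-2, fell by 1.39 (adjusted p 0.00969; 0.0583 without P351A plus ALA replicate 1). The call of mir-24-2 (-1.19, 0.017) did not pass without that library (0.0824) or without WT replicate 1 (0.0604). Levels of mir-27a were 2852 to 3803 in mock and 2023 to 2382 in P351A, so P351A plus ALA lay above both and below WT.

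All 5 tested miR-10 and miR-196 hairpins, which lie among the HOX genes, fell (median -1.18, below 0 under each scaling). Other tested hairpins at HOX genes did not pass: mir-615 stood at -0.28 (adjusted p 0.775) and mir-7704, which overlaps an exon of HOXD1, at -1.0 (0.169). These microRNAs are transcribed with the HOX genes that pattern the body axis. The strongest was mir-196b, beside the HOXA genes (chr7:27169480-27169563, minus strand), at 6995, 2314 and 2636 scaled reads in WT and 703, 772 and 609 in P351A plus ALA. The P351A plus ALA values were close together and WT replicate 1 was far above the other WT libraries. The difference was -2.34 (SE 0.40, adjusted p 0.000445), and -1.84 without WT replicate 1. In an intron of HOXB3, mir-10a, among the most abundant hairpins of these cells, had 92125, 46442 and 59417 in WT and 32699, 33345 and 29023 in P351A plus ALA (-1.0, SE 0.24, adjusted p 0.00465). Its P351A libraries held 5768 to 5994. The copies of mir-196a fell by 1.19 and 1.18. For mir-196a-1 the adjusted p was 0.0173, and it was 0.0626 without WT replicate 1, 0.0527 without P351A plus ALA replicate 1 and 0.0501 without replicate 2; the copy mir-196a-2 lost its call without the same libraries (0.0661, 0.0555 and 0.0507). The hairpin mir-10b fell by 0.83 (0.0164; 0.0525 without P351A plus ALA replicate 2 and 0.0931 with TMM).

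Of the miR-26 family, which restrains the EZH2 gene, 2 of 3 tested hairpins fell, and these are copies with the same reads. The hairpin mir-26a-1 had 35954, 17028 and 20223 scaled reads in WT, 9918, 11604 and 8411 in P351A plus ALA and 2460 to 2784 in P351A. Groups did not overlap (-1.23, SE 0.27, adjusted p 0.00321). The other member, mir-26b, stood at -1.09 (adjusted p 0.0595). As lower, mir-26b passed with median centring (0.00525), equal totals (0.00766), TMM (0.0217) and DESeq2 (0.00403).

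Falls outside these families included mir-126, known from endothelium and encoded in EGFL7 (chr9:136670602-136670686, plus strand). It had 2148, 1430 and 1540 scaled reads in WT and 504, 680 and 647 in P351A plus ALA. The difference was -1.47 (SE 0.26, adjusted p 0.000774). Among low hairpins, mir-1180 fell from 184 to 299 scaled reads in WT to 46.1 to 70.1 (-1.84), and mir-561 from 215 to 490 down to 30.0 to 118 (-2.01). The hairpin mir-501 fell by 1.57, from 81.3 to 205 down to 21.5 to 51.7. The hairpin mir-7-3 (236 to 1070 in WT, 127 to 162 in P351A plus ALA) passed by a narrow margin (-1.40, adjusted p 0.0457). Its adjusted p was 0.208 without WT replicate 1, and 0.0824, 0.0734 and 0.10 without P351A plus ALA replicates 1, 2 and 3.

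**Figure D2:**
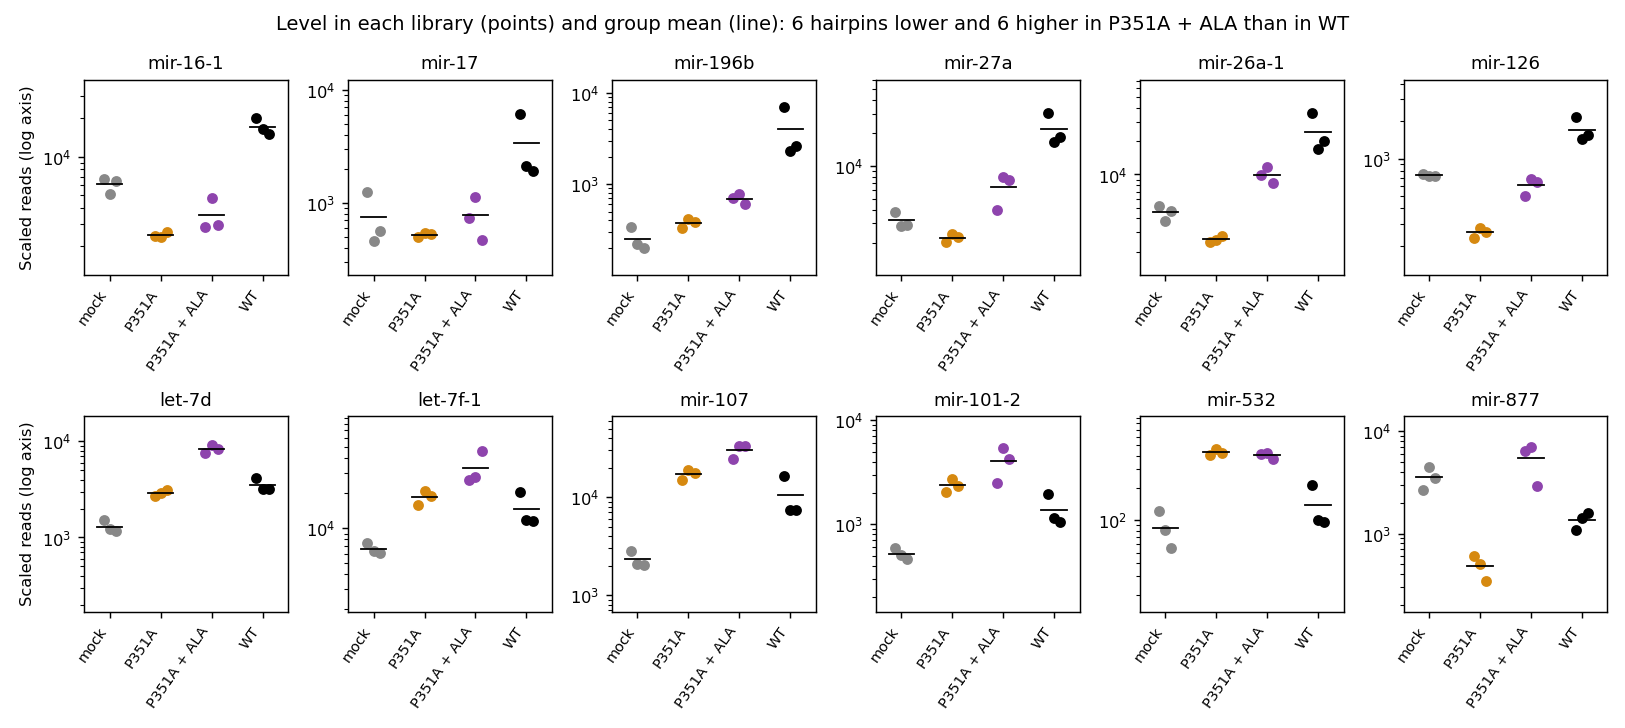
Scaled reads (log axis) of 12 hairpins in each mock, P351A, P351A plus ALA and WT library; points are libraries and lines are group means over 3. The upper row holds hairpins that fell against WT, such as mir-16-1 with 2833 to 4737 against 15153 to 19991, and the lower row hairpins that rose, such as let-7d with 7526 to 9092 against 3163 to 4130.

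Levels of several of these falls in the other rescues are given side by side, since comparisons between rescues share libraries. The hairpin mir-16-1 held 2377 to 2595 scaled reads in P351A, 5345 to 8427 in C352A and 5077 to 6751 in mock. In those groups mir-196b held 326 to 414, 226 to 478 and 201 to 336. The hairpin mir-126 held 231 to 277, 639 to 824 and 718 to 751. For both mir-16-1 and mir-126, all 3 P351A libraries were below all 3 mock libraries. For mir-561 the P351A level (169 to 219) lay above all P351A plus ALA libraries, and for mir-501 likewise (67.8 to 113).

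The let-7 family, which holds growth genes such as RAS and HMGA2 in check, showed the largest group of rises. Of its 12 tested hairpins 7 rose and 1 fell, beside 13.7% and 20.2% of all hairpins. The 7 include copies of let-7a and of let-7f, which share reads and are not separate evidence. The median was 0.87; it was above 0 under the authors' scaling, median centring, equal totals and TMM, and -0.05 when centred on the Microprocessor-independent hairpins. The hairpin let-7d (chr9:94178834-94178920, plus strand) had 4130, 3163 and 3215 scaled reads in WT and 7526, 9092 and 8278 in P351A plus ALA. All 3 libraries were far above WT (1.25, SE 0.25, adjusted p 0.00198). Next to it on the same transcript, let-7f-1 had 20663, 11720 and 11444 against 25811, 27559 and 46026 (1.19, adjusted p 0.00228). The ratio of let-7f-1 to its copy let-7f-2 (1.17) was 0.982 to 0.996. The hairpin let-7e had 2990, 2112 and 2079 against 4249, 4733 and 6568 (1.11, adjusted p 0.00381). The copies of let-7a, which share their reads, rose by 0.87 to 0.91; let-7a-1 stood at -0.05 when centred on the Microprocessor-independent hairpins.

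Other members were split. The hairpin let-7i fell (-0.78, adjusted p 0.0438), at 104515, 51792 and 54982 in WT and 24938, 42240 and 55447 in P351A plus ALA. These ranges overlap, and the adjusted p was 0.176 without WT replicate 1, 0.217 without P351A plus ALA replicate 1 and 0.0635 without replicate 2. With TMM the value was -0.37 (0.191), and with DESeq2 the adjusted p was 0.111. Levels of let-7b were 4288 to 4684 in WT and 3029 to 3303 in P351A plus ALA, without overlap, at -0.49 (adjusted p 0.10). With median centring (0.0483) and equal totals (0.0477) let-7b passed as lower. The hairpin mir-98 stood at -0.41 (0.399). At 0.43 (0.29), let-7c passed as higher with TMM (0.00847) and DESeq2 (0.0179). On the side of the rises, let-7g stood at 0.68 (0.10) and passed as higher with equal totals, TMM and DESeq2.

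All 3 tested miR-103 and miR-107 hairpins rose, but they are 1 signal: the ratio of mir-107 to mir-103a-1 was 0.982 to 0.998 in every library. They lie in introns of the PANK genes of coenzyme A synthesis. The hairpin mir-107 (chr10:89592747-89592827, minus strand, in PANK1) had 16390, 7331 and 7474 scaled reads in WT and 24401, 33201 and 33269 in P351A plus ALA. Its level in P351A was 14896 to 18916 and in mock 2010 to 2831. The difference from WT was 1.64 (SE 0.27, adjusted p 0.000362), and the median of the list was above 0 under each scaling. Centred on the Microprocessor-independent hairpins, mir-107 stood at 0.72 and did not pass (0.136).

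Among the other rises, mir-101-2 (in RCL1; miR-101 represses EZH2) had 1938, 1142 and 1052 scaled reads in WT and 2505, 5431 and 4252 in P351A plus ALA (1.54, SE 0.31, adjusted p 0.00198). Its groups did not overlap. The hairpin mir-1254-1 rose by 1.56 (236 to 324 against 79.3 to 116). Weaker calls were those of mir-4521 and mir-455. The first (270 to 617 against 123 to 171; 1.51, adjusted p 0.0267) had adjusted p of 0.0601 without WT replicate 1, 0.0974 without P351A plus ALA replicate 1 and 0.0675 without replicate 2. The second (122 to 225 against 47.1 to 92.1; 1.36, 0.0133) had 0.0524 without WT replicate 3 and 0.0532 without P351A plus ALA replicate 2.

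Within 1 intron cluster of the CLCN5 gene, hairpins moved in opposite directions: 2 of 5 tested rose and 3 fell. The hairpin mir-532 (chrX:50003148-50003238, plus strand) had 215, 102 and 97.0 scaled reads in WT and 412, 428 and 372 in P351A plus ALA (1.64, SE 0.36, adjusted p 0.00312). Mock held 55.1 to 121 and P351A 404 to 464. The hairpin mir-660 rose by 1.25 (adjusted p 0.0148), which became 0.0581 without WT replicate 2, 0.0524 without WT replicate 3 and 0.0518 without P351A plus ALA replicate 2. Beside them mir-500a had 171, 82.7 and 89.9 in WT and 56.9, 64.3 and 41.5 in P351A plus ALA (-1.01, adjusted p 0.0331). This call did not pass without WT replicate 1 (0.131), P351A plus ALA replicate 1 (0.0666) or replicate 3 (0.0975), nor with TMM (0.0527). The hairpin mir-502 fell by 0.98 (adjusted p 0.0382) and did not pass without WT replicate 1 (0.149) or without P351A plus ALA replicate 1 (0.0631), 2 (0.0525) or 3 (0.113), nor with TMM (0.0621). Its ratio to mir-500a was 0.917 to 1.04 in the 15 libraries, so these 2 falls are not separate evidence.

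Of the 5 tested hairpins listed as independent of Microprocessor, 2 rose and none fell (median 0.64, and -0.28 when they themselves served for centring). The mirtron mir-877, spliced from ABCF1 (chr6:30584332-30584417, plus strand), had 1071, 1404 and 1578 scaled reads in WT and 6397, 7013 and 2942 in P351A plus ALA. Replicate 3 was well below the others of its group but above all WT libraries (1.93, SE 0.41, adjusted p 0.00257). P351A alone held 342 to 609 and mock 2683 to 4517. The hairpin mir-320a had 64028 to 68304 in WT and 88662 to 95031 in P351A plus ALA (0.48, SE 0.09, adjusted p 0.00184). This value was -0.44 when centred on the Microprocessor-independent hairpins, of which it is 1, and on the median hairpin it did not pass (0.34, 0.147). Of the 8 tested miR-320 copies it alone rose. The authors' factors keep the sum of these copies nearly level. On that scale the differences of single copies, and the adjusted p of mir-320a, are therefore not independent of the scaling. The hairpin mir-320c-1 fell (-0.58, 0.0147; 0.0518 without P351A plus ALA replicate 2, 0.317 with TMM and 0.196 with DESeq2), the other 6 did not pass, and the median of the 8 was -0.56. That median does not describe their summed scaled reads. No WT library exceeded a sum of 208002, whereas every P351A plus ALA library held at least 220980. The hairpin mir-484, made at the NDE1 transcription start, had 1565, 546 and 606 against 3836, 2425 and 654. It did not pass on the authors' scale (1.18, adjusted p 0.0938; 0.0285 without WT replicate 1 and 0.00757 without P351A plus ALA replicate 3). With TMM (1.80, 0.00316) and DESeq2 (1.65, 0.00081) mir-484 passed as higher. So did mir-1224 of the same list (0.64, 0.19 on the authors' scale; 0.017 with TMM and 0.0496 with DESeq2), while mir-1226 passed with neither.

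The hairpin mir-1306 lies within the DGCR8 transcript. It had 42.7, 41.4 and 34.2 scaled reads in WT and 121, 161 and 213 in P351A plus ALA, against 12.6 to 17.0 in P351A and 0 to 3.22 in mock. Every P351A plus ALA library was above all others (2.01, SE 0.50, adjusted p 0.00737). Levels of the DGCR8 protein are not measured in these libraries.

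**Figure D3:**
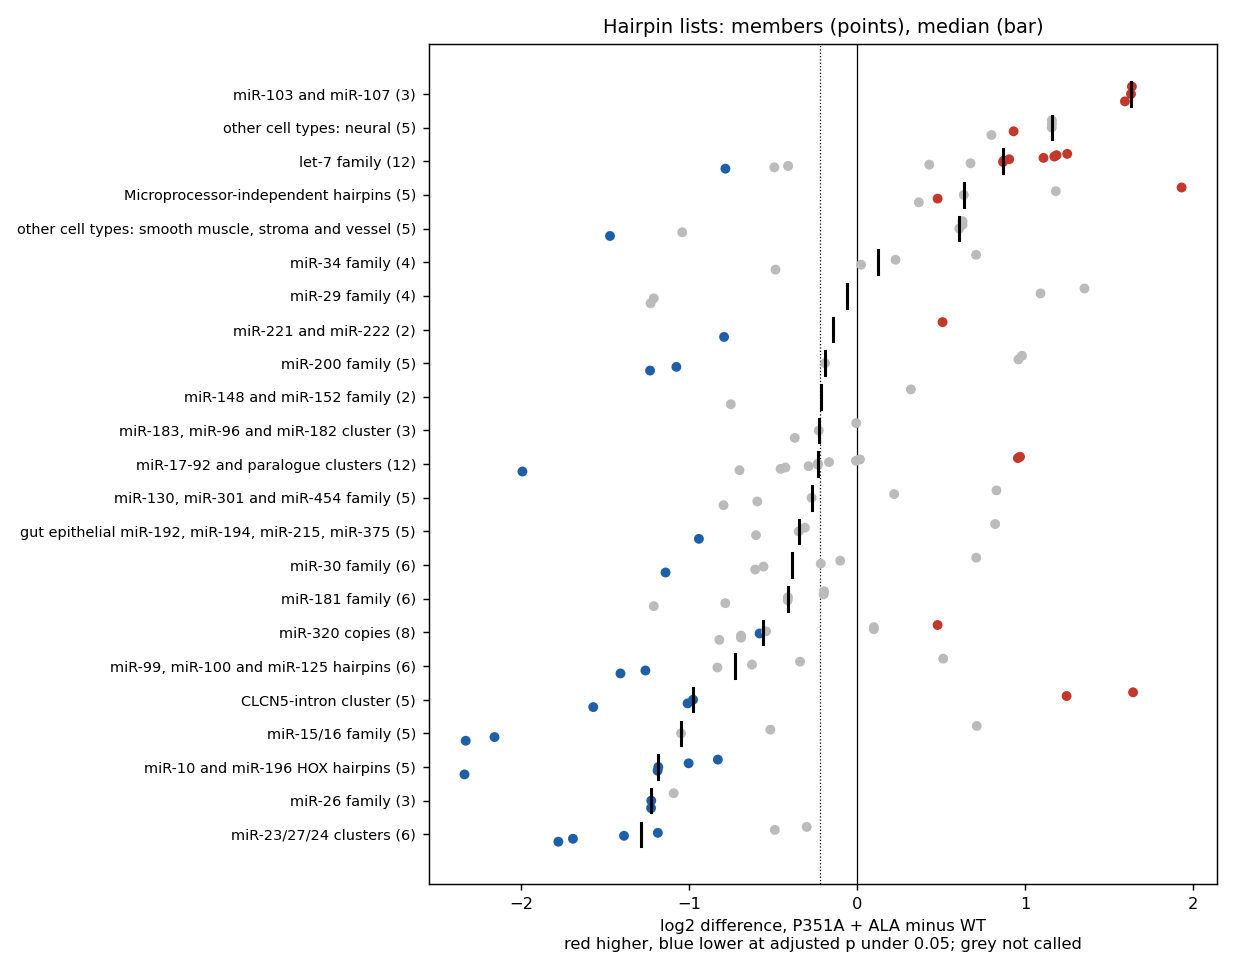
Each row is a list of hairpins with the number tested; points are the members' log2 differences, P351A plus ALA minus WT, in red or blue where they rose or fell, and bars are list medians. Medians run from 1.63 for miR-103 and miR-107, 1.16 for the neural list and 0.87 for let-7 down to -1.18 for the HOX hairpins, -1.22 for miR-26 and -1.29 for the miR-23/27/24 clusters; the dotted line is the median of all hairpins, and lists with 1 tested member and the mir-372 and mir-373 list are not drawn.

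The remaining lists are likewise read against the background of 13.7% higher and 20.2% lower. In the miR-200 family, which keeps epithelial cells from turning mesenchymal, 2 of 5 fell and none rose on the authors' scale. These were mir-141 (-1.23, adjusted p 0.0365) and mir-200a (-1.07, 0.0247); neither passed without WT replicate 1 (0.149 and 0.0787), without P351A plus ALA replicate 1 (0.0714 and 0.0824) or without replicate 3 (0.115 and 0.0648). On the other side, mir-429 stood at 0.98 (0.0548) and mir-200c at 0.96 (0.202). With TMM and with DESeq2 both of these passed as higher, and mir-429 did so as well with median centring (0.0203) and equal totals (0.0139). Of 6 miR-30 hairpins mir-30e fell (-1.14, 0.00997, and 0.0583 without P351A plus ALA replicate 1). In that family mir-30d (-0.56, 0.165) passed as lower with median centring (0.0386) and equal totals (0.0477). On the other side mir-30b (0.71, 0.292) passed as higher with TMM (0.0135) and DESeq2 (0.0116). In the list of miR-99, miR-100 and miR-125 2 of 6 fell, mir-99b and mir-99a. For mir-99a (-1.41, 0.0291) the adjusted p was 0.14 without WT replicate 1, and 0.0583 and 0.0869 without P351A plus ALA replicates 1 and 3. Of the same list mir-100 stood at -0.83 (0.0893) and passed as lower with median centring (0.00678) and equal totals (0.0274). No hairpin of the miR-181, miR-29, miR-34, miR-148 and miR-152, miR-130, miR-301 and miR-454, or miR-183, miR-96 and miR-182 lists passed in limma on the authors' scale in either direction. Of their 24 tested hairpins, 2 were higher and 6 lower at an unadjusted p under 0.05. With adjusted p from edgeR and TMM, 5 were higher and 0 lower, and with DESeq2, 4 and 4. With median centring in limma, mir-29a (0.025) and mir-29c (0.0437) passed as higher. Passing as lower there were mir-29b-1, mir-29b-2, mir-181c, mir-181d, mir-183, mir-130b, mir-148b and mir-454 (adjusted p 0.00707 to 0.0467). In the miR-29 family the values were split: mir-29a stood at 1.09 (0.0639) and mir-29b-1 at -1.21 (0.0521). Gut hairpins had 1 fall in 5, mir-192 (-0.94, 0.0265), which did not pass without WT replicate 1 (0.093) or P351A plus ALA replicates 1 (0.0824) or 2 (0.0518), nor with TMM (0.0571). Of the other gut hairpins, mir-375 stood at 0.82 (0.11) and passed as higher with TMM (0.00458) and DESeq2 (0.00339). Below 0 lay mir-194-1, mir-194-2 and mir-215, which did not pass on the authors' scale.

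Lists of hairpins known from other cell types were read as well. All libraries came from the HCT116 line, so the list names do not mean that such cells were present. All 5 tested neural hairpins lay above 0 (median 1.16), and mir-128-2 passed (0.93, adjusted p 0.0428). They are copies of mir-9 and of mir-128, so they are not 5 separate signals. The list median was 2.16 for P351A minus WT, so higher values than in WT were not particular to P351A plus ALA. For P351A plus ALA minus P351A the list median was -1.0, with 2 of 5 higher and 0 lower. The 3 copies of mir-9, which share their reads, stood at 1.16 (0.0636 for mir-9-1), and mir-128-1 at 0.80 (0.0635). Both mir-9-1 and mir-128-1 passed as higher with median centring, equal totals, TMM and DESeq2. The call of mir-128-2 did not pass without WT replicates 2 (0.132) or 3 (0.0865) or P351A plus ALA replicates 1 (0.137) or 2 (0.108). Neural hairpins summed to 1409 to 3003 scaled reads in WT and 2872 to 4374 in P351A plus ALA, over 6 of 9 listed hairpins; the other 3 have no values here. The stroma and vessel list summed to 1530 to 2467 in WT and 720 to 932 in P351A plus ALA, most of it mir-126, the 1 fall in 5. Its other values did not pass on the authors' scale and lay on both sides: mir-143 at 0.61, the copies of mir-199a at 0.63 and mir-145 at -1.04, with a list median of 0.61. The copies of mir-199a passed as higher with TMM (0.015) and DESeq2 (0.0463). In bulk RNA a change in the share of the HCT116 cells that hold a hairpin and a change in its level per cell cannot be told apart.

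Among the 10 hairpins with the highest WT means, 3 rose, 4 fell and 3 did not pass. The oncogenic mir-21, the most abundant, had 357939, 170815 and 164155 scaled reads in WT and 140549, 222676 and 207335 in P351A plus ALA. The groups overlap, and the difference of -0.21 had a 95% interval from -0.80 to 0.38 (adjusted p 0.583); with TMM it was 0.13. For mir-22 the interval ran from -0.87 to 0.14 around -0.36, and for mir-320b-2 from -0.11 to 0.31 around 0.10. The hairpin mir-31, often raised in colorectal tumours, had 57009, 28623 and 28288 in WT and 76359, 78458 and 65645 in P351A plus ALA (1.03, SE 0.23, adjusted p 0.00347; 0.11 and 0.808 when centred on the Microprocessor-independent hairpins). The hairpin mir-191 had 43366, 23313 and 29448 against 15617, 15583 and 12786 (-1.09, SE 0.22, adjusted p 0.00198).

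The pair mir-222 and mir-221, from 1 transcript and known to repress the cell cycle inhibitor p27, parted. The hairpin mir-222 had 60950, 60338 and 66115 in WT and 87298, 84201 and 95346 in P351A plus ALA (0.51, SE 0.17, adjusted p 0.0356), a value that became -0.41 when centred on the Microprocessor-independent hairpins. It also did not pass with median centring (0.243), equal totals (0.0984) or DESeq2 (0.0665). The hairpin mir-221 had 50332, 25543 and 25341 against 17882, 18147 and 19379 (-0.79, SE 0.30, 0.0488). The libraries of the 2 groups did not overlap for either hairpin, yet both calls were narrow. With any 1 of the 6 libraries left out, mir-222 had adjusted p from 0.0503 (without WT replicate 3) to 0.0869 (without P351A plus ALA replicate 3), and mir-221 had 0.202 without WT replicate 1 and 0.108, 0.0975 and 0.0749 without P351A plus ALA replicates 1, 2 and 3, and 0.106 with TMM.

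**Figure D4:**
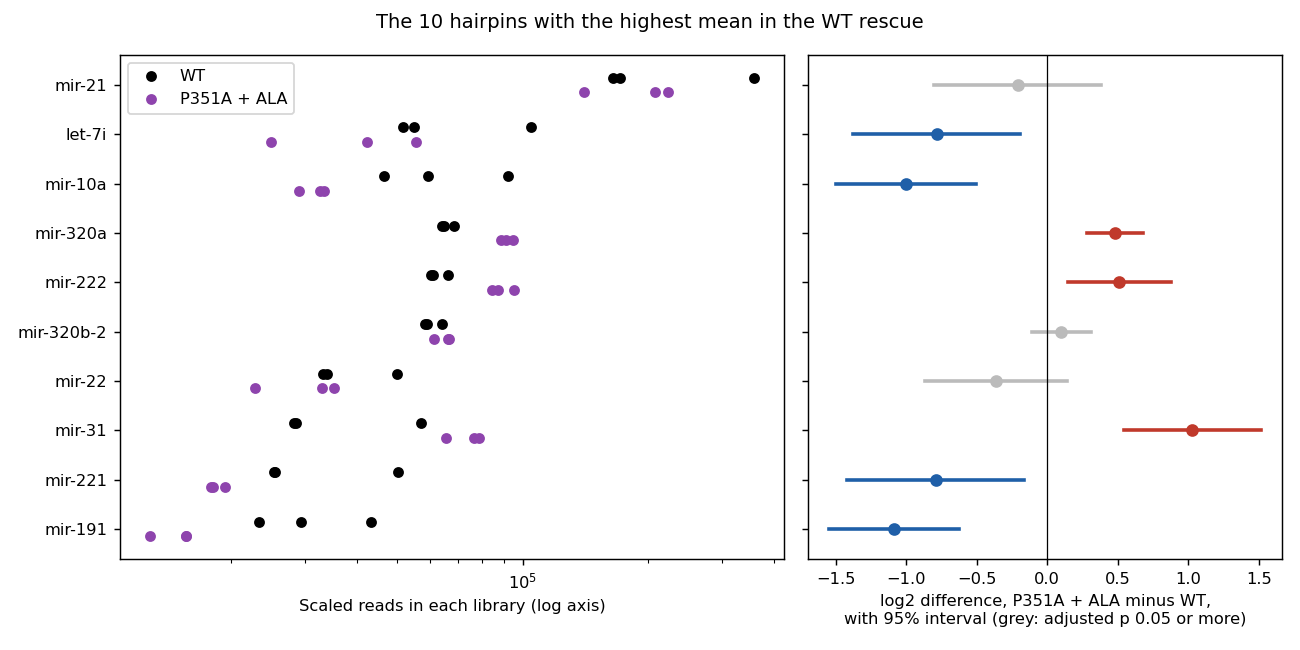
Left, scaled reads (log axis) of the 10 hairpins with the highest WT mean in each WT and P351A plus ALA library; right, the log2 difference with its 95% interval, grey where the test was not passed. For mir-31 (1.03) and mir-10a (-1.0) no library of one group falls within the other, whereas those of mir-21 (-0.21) are mixed.

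Hairpins cut from the same primary transcript can be compared within a library, where the scale factor cancels apart from the added 1. Successive tested hairpins on 1 strand within 10000 bases, among those with a RefSeq position, formed 35 clusters of 83 hairpins. In 4 clusters some members rose and others fell, in 8 the called members all rose, in 12 they all fell, and 11 had none. Of 44 neighbouring pairs with different mature names, 26 (59.1%) had log2 ratios that did not overlap between P351A plus ALA and WT, and the median absolute change was 1.18. These pairs were chosen after the values were seen, some share reads with copies elsewhere, and no test is given.

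Several pairs changed by more than 2-fold. The log2 ratio of mir-99b over let-7e, in 1 intron of SPACA6 on chromosome 19, was 2.49, 1.47 and 1.54 in WT and 0.05, -0.20 and -1.46 in P351A plus ALA. The hairpin mir-99b itself fell (-1.26, adjusted p 0.0156), with 0.0564 without WT replicate 1 and 0.0633 without P351A plus ALA replicate 3, while let-7e rose. For mir-532 over mir-500a the ratio was 0.33, 0.29 and 0.11 in WT and 2.84, 2.72 and 3.13 in P351A plus ALA. The ratio of mir-29b-1 over mir-29a was -3.04, -2.62 and -2.69 against -5.51, -4.82 and -4.92. That of mir-200c over mir-141 was -2.70, -3.10 and -3.35 against -0.07, -1.0 and -1.50. Both mir-17 over mir-18a (3.99 to 4.24 against 2.71 to 2.94) and mir-222 over mir-221 (0.28 to 1.38 against 2.21 to 2.30) were apart as well. Other pairs kept overlapping ratios, such as mir-191 over mir-425 (5.72 to 6.32 against 5.76 to 6.74) and let-7f-1 over let-7d (1.83 to 2.32 against 1.6 to 2.47).

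Since the series is about the apical loop, hairpins were split by a UGU between the annotated mature arms. Of 191 matched hairpins with both arms annotated, 78 (40.8%) held 1 or more, read on the transcribed strand only. Of these, 15.4% rose and 20.5% fell against WT, with a median of -0.25. Of the 113 without UGU, 15.9% rose and 23.0% fell, with a median of -0.30. When the window was widened by 3 bases on each side, 105 hairpins held a UGU with a median of -0.29, and 86 did not with a median of -0.11. Against P351A the medians were 1.06 with UGU between the arms and 0.81 without. P351A minus WT, which shares libraries with both, gave -1.39 and -0.84. Whole hairpins are shown for 1 fall and 1 rise of each kind, with UGU between the arms in capitals.
mir-17 hairpin, fell: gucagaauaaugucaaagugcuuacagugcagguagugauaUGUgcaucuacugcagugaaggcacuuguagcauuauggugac
mir-101-2 hairpin, rose: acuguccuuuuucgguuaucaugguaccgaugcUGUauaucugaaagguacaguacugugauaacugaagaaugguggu
mir-16-1 hairpin, fell: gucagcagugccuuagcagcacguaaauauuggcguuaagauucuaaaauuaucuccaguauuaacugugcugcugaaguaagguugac
let-7e hairpin, rose: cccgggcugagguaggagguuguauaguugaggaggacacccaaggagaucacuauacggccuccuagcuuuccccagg
With 14 bases between its arms mir-17 held 1 UGU, as did mir-101-2 with 15. No UGU was found in the 20 bases of mir-16-1 or the 23 of let-7e. So hairpins with and without UGU were among both the rises and the falls.

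The same P351A plus ALA libraries were also set against P351A alone, which asks what accompanied ALA. On the authors' scale 150 hairpins (44.6%) were higher and 10 (2.98%) lower, with a median difference of 0.81. Here too the scaling set the balance: 45 higher and 105 lower when centred on the median hairpin, 17 and 166 on the Microprocessor-independent hairpins, 74 and 61 with equal totals, 55 and 121 with TMM and 81 and 80 with DESeq2. The number of lower hairpins was 4, 2 and 5 without P351A replicates 1, 2 and 3, and 5 and 3 without P351A plus ALA replicates 1 and 3. In rank, the 5 largest rises were those of mir-224, mir-4517, mir-149, mir-342 and mir-3609. The hairpin mir-224, in GABRE, had 17.0, 13.8 and 11.7 scaled reads in P351A and 246, 277 and 188 in P351A plus ALA (3.97, SE 0.41, adjusted p 1.59e-06), against 79.3 to 151 in WT. For mir-4517 and mir-3609 P351A held at most 1.37 scaled reads, so no fold is given; P351A plus ALA held 16.1 to 29 and 11.5 to 34.5.

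Replicate 3 set itself apart in mir-149 and mir-342. The hairpin mir-149, in GPC1, had 818, 741 and 72.2 in P351A plus ALA and 18.5 to 23.5 in P351A (3.97, SE 0.71, adjusted p 0.000206). The hairpin mir-342, in EVL, had 215, 222 and 39.2 against 5.50 to 10.2 (3.90, SE 0.51, 1.15e-05). The 5 largest falls were mir-629 (13.9 to 23.1 against 63.2 to 98.6; -2.05), mir-19a (631 to 872 against 1420 to 2593; -1.48), mir-561 (-1.40), mir-3615 (446 to 1098 against 1467 to 2067; -1.39) and mir-95 (-1.27). Among abundant hairpins mir-22 had 22777 to 35227 in P351A plus ALA against 4204 to 4476 in P351A (2.79, adjusted p 2.3e-07), beside 33184 to 50044 in WT. In contrast mir-221 held 17882 to 19379 in P351A plus ALA against 14730 to 20530 in P351A, a difference of 0.03 with a 95% interval from -0.60 to 0.66 on the authors' scale.

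Of the lists, all 6 tested hairpins of the miR-30 family were higher than in P351A on the authors' scale, with a median of 1.94 against 0.81 for all hairpins; the median stayed above 0 under every scaling, with 0.08 on the Microprocessor-independent hairpins the lowest, but 4 of 6 passed with DESeq2 and 2 of 6 with each of the other 4. All 6 of the miR-23/27/24 clusters were higher (median 1.46), while that centring gave -0.41 with 0 of 6 passing in limma (1 higher and 0 lower at an unadjusted p under 0.05), and 2 to 5 of 6 passed under the other scalings. In let-7, 8 of 12 were higher, with a median of 0.75 that was below the 0.81 of all hairpins. For each of these lists the share over all hairpins on the authors' scale was 44.6% higher and 2.98% lower. With each other scaling the let-7 median was below 0, from -1.11 to -0.03, with 0 to 2 higher and 2 to 8 lower. None of 6 of miR-99, miR-100 and miR-125 (-0.37) or of 5 in miR-200 (0.40) passed in either direction; with TMM 5 and 3 of them were lower. The hairpin mir-30a had 208 to 243 in P351A, 1363 to 3569 in P351A plus ALA and 3036 to 4784 in WT.

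Against the mock rescue, the background of the system, 166 hairpins (49.4%) were higher in P351A plus ALA and 30 (8.93%) lower, with a median of 0.87. With other scalings the split was 85 and 95 on the median hairpin, 59 and 79 on the Microprocessor-independent hairpins, 51 and 144 with equal totals, 80 and 98 with TMM and 87 and 92 with DESeq2. WT minus mock, with the same mock libraries, had a median of 1.13, and P351A minus WT, with the same WT libraries, one of -0.95. Hairpins that fell against WT were on both sides of mock: mir-16-1 was lower than in mock (-0.83, adjusted p 0.0075) and mir-10a higher (2.80, 4e-08), while mir-126 stood at -0.27 (0.38) and mir-17 at 0.10 (0.87).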

How the data were processed

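RNA isolated with TRIzol was gel-selected for 17 to 30 nt and made into Illumina TruSeq small RNA libraries, per the labels' protocols. Per the submitters' processing notes, cutadapt 1.14, Bowtie2 and hg38 (GRCh38) were used; how reads were assigned to hairpins is not given in the sources used here. As deposited by the authors, 1 mock column holds whole read counts, and the other columns hold signal, read counts times 1 factor per library (100% whole multiples, tolerance 0.001 of a read). The factors hold the miR-320 sum nearly level. Mock columns matched their group only.

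Hairpins with a mean of 10 or more were tested with limma 3.58.1 (R 4.3.3) on log2(value + 1), eBayes with trend, group as the only term over 15 libraries, 2-sided, Benjamini-Hochberg adjusted over 336 hairpins (277 mature names). The script was tested on simulated data. Alternatives used edgeR 4.0.16 and DESeq2 1.42.0 on recovered read counts. Host genes came from GENCODE release 29. Intervals of read ratios cover counting error only. Replicates differed by more than sampling noise. Copies with 1 mature sequence share reads.

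Members and lists were chosen with earlier results of these data known. Named were the 12 largest falls and 12 largest rises against WT among called hairpins at or above the median level whose libraries did not overlap. Without that limit, the 10 highest WT means, the 5 largest called rises and falls against P351A, and list examples were also named.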

Additional observations from a re-analysis of the deposited data

How the results depend on the processing

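Against WT (46 higher, 68 lower), the counts were 48 and 103 when centred on the median hairpin, 1 and 170 on the Microprocessor-independent hairpins, 91 and 57 with edgeR and TMM, 74 and 83 with DESeq2 and 18 and 31 when only the 2 groups were fitted. Leaving out 1 library gave 24 to 58 higher and 32 to 72 lower. Against P351A (150 and 10) they were 45 and 105 on the median hairpin, 17 and 166 on the Microprocessor-independent hairpins, 74 and 61 with equal totals, 55 and 121 with TMM, 81 and 80 with DESeq2, 90 and 5 at a mean of 50 or more, which tests fewer hairpins, and 145 and 5 with no filter; leaving out 1 library gave 113 to 148 and 2 to 9. Against mock (166 and 30) they were 85 and 95, 59 and 79, 51 and 144, 80 and 98 and 87 and 92 under the same 5 scalings and tools, and 131 and 18 at a mean of 50 or more; leaving out 1 library gave 124 to 167 and 21 to 26. Same-numbered P351A plus ALA and WT libraries deviated together with r of 0.22, -0.20 and 0.11, and those of P351A plus ALA and P351A with 0.26, -0.03 and 0.05, so the numbers were not taken as pairs. With a replicate block in limma on only the 2 groups (18 and 31 without the block), 0 hairpins were higher and 6 lower against WT (45 and 66 at an unadjusted p under 0.05), and 184 and 25 against P351A; mock columns carry no number. Centred on the Microprocessor-independent hairpins, the difference from WT turned to -0.44 for mir-320a, -0.41 for mir-222, -0.82 for mir-320b-2, -0.75 for mir-4517, -0.62 for mir-342, -0.55 for mir-3609, -0.050 for let-7a-1 and -0.55 for mir-1226. On the median hairpin mir-320b-2 turned to -0.037, and with TMM mir-21 to 0.13. Without WT replicate 1, mir-21 stood at 0.16 and mir-19a at 0.46. Leaving out 1 library gave -0.41 to 0.16 for mir-21, -0.69 to 0.46 for mir-19a, -0.00016 to 0.40 for mir-4517 and -0.12 to 1.11 for mir-342. Of 72 hairpins followed through the alternatives, 52 had a call, and 29 of these kept it whichever of the 6 libraries was left out; over all alternatives, block included, 4 of the 72 changed neither call nor direction. When only the 2 groups were fitted 26 of the 72 lost their call, and with the block as well 48 did. The cause was not tested in any of these cases. The median half-width of the 95% interval was 0.84 (log2), which limits what could be detected, and 63 hairpins had no matched sequence.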
